A study of Mus musculus with 39 samples.

Results

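Replication-dependent histone genes were taken from the deposited count table by their symbols, as the genes named H1f1 to H1f6 and the numbered H2ac, H2bc, H3c and H4c genes. The rule found 57 genes among 55487: 6 of H1, 15 of H2A, 14 of H2B, 12 of H3 and 10 of H4. The study sequenced wild-type mouse embryos at the 4-cell and the 2-cell stage, either as whole embryos in 1 library or as separated blastomeres with 1 library per blastomere. No strain or age in hours was given. Summed per embryo, the 39 libraries gave 5 separated 4-cell embryos, 4 intact 4-cell embryos, 5 separated 2-cell embryos and 5 intact 2-cell embryos. Separated 4-cell embryos 6 and 7 belonged to batch 2 of the labels and all others to batch 1. Batch 2 and the separated 4-cell group are therefore partly confounded.

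Histones H2A, H2B, H3 and H4 form the core around which DNA is wrapped, and H1 binds the linker DNA between cores. The replication-dependent genes are expressed mainly in S phase, when newly made DNA needs new histones. Their messages usually end in a short stem-loop bound by SLBP (stem-loop binding protein) and carry no poly(A) tail, whereas the replication-independent variants have ordinary polyadenylated messages. In the embryo the first cell cycles begin with histone protein and message inherited from the oocyte. The libraries were primed with oligo-dT, so the values below cover only those histone transcripts that oligo-dT primed, and messages without a poly(A) stretch are largely outside them.

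The stem-loop is shown for the called genes whose annotated transcript holds it and for H4c3, because it marks where a processed histone message would end. In the GENCODE M21 transcripts (GRCm38), its letters (GG, any 2 bases, CTTTT, 1 base, A, 3 bases, CC) were found on the transcript strand in 36 of the 57 models, against 0.535% of 21877 protein-coding genes. By class they were in 4 of 6 H1, 8 of 15 H2A, 8 of 14 H2B, 8 of 12 H3 and 8 of 10 H4 models. Capitals mark the 16 bases of the stem-loop, with 5 flanking bases on each side.
H4c4, chr13:23581945-23581970, plus strand: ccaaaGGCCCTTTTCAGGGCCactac
H4c3, chr13:23698084-23698109, minus strand: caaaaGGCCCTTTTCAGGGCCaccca
H2ac4, chr13:23751567-23751592, plus strand: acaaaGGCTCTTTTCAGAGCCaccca
H2ac7, chr13:23574890-23574915, plus strand: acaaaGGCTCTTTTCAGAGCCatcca
H2ac8, chr13:23570663-23570688, minus strand: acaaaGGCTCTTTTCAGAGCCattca
H3c2, chr13:23752815-23752840, plus strand: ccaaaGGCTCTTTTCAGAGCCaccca
H3c6, chr13:23561898-23561923, minus strand: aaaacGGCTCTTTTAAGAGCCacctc
The annotated H4c4 transcript runs 770 bases past its stem-loop, that of H4c3 454, H3c6 369, H2ac8 151, H3c2 51, H2ac7 42 and H2ac4 11. In all, 19 models ran more than 100 bases past it, and 10 held the letters AATAAA, the common polyadenylation signal, after it; H2ac8 was 1 of these and the other 6 shown were not. The models of H1f5 and H3c11 do not hold the letters. The annotation that the submitters counted on is not given in the sources used here, so the counted transcript ends may differ from these models.

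The region before the start is shown for H1f5 and H4c4, the pair with the highest mean level per kilobase of model. RefSeq windows (GRCm38.p6, 250 bases before to 50 after the start) matched 51 of the 57 genes, and the 250 bases before the start are printed. On either strand, capitals mark the CCAAT box, the TATA box (letters TATAAA) and the H1 box (letters AAACACA).
H1f5, chr13:21780626-21780875, minus strand: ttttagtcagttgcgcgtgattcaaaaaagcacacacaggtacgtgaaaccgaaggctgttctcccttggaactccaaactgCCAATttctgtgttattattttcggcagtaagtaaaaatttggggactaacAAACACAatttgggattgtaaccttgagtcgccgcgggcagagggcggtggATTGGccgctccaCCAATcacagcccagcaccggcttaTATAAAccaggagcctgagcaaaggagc
H4c4, chr13:23581318-23581567, plus strand: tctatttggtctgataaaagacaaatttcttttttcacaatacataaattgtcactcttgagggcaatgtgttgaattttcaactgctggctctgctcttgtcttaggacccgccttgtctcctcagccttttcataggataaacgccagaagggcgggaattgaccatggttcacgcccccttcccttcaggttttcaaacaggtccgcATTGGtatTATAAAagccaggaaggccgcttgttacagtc
Over the full windows, CCAAT was in 45 of 51 histone promoters (88.24%) against 37.41% of all 32851 promoters, with 3 of 9 for H4 and all of the other classes. TATAAA was in 30 of 51 (58.82%) against 13.62%. AAACACA, known from H1 promoters, was in 5 of 6 H1 windows, 2 of 14 H2A windows and 2 of 12 H2B windows, against 7.18% of all. The octamer ATTTGCAT was in 6 of 14 H2A and 6 of 12 H2B windows and in no H1, H3 or H4 window, against 1.74% of all. None of these motifs overlap each other in the sequences printed.

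Of the 57 genes, 47 lie on chromosome 13 and 10 on chromosome 3, and 55 have 1 exon in the models used. Many histone genes of a class, though few of H1, are near copies of each other, so reads can be shared among them. In 28 genes more than 50% of the 50-base stretches of the model occurred in another gene's transcript. The share was 0% for H1f5, 10.2% for H4c4, 19.6% for H4c3, 43.2% for H2ac8, 58.0% for H2ac4, 60.4% for H3c2, 67.1% for H2ac7, 73.4% for H3c6, 87.6% for H3c11 and 100% for H2bc18, so the split of counts between single genes is uncertain for those at the high end. The models of 21 genes, H2ac4, H2ac7, H2ac8 and H2bc18 among them, overlap another annotated gene, and whether counting used strand is not stated.

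Totals per embryo were 13041675 to 103179667 counts in separated 4-cell, 2738246 to 4194073 in intact 4-cell, 14229851 to 56216690 in separated 2-cell and 7157817 to 9889926 in intact 2-cell embryos. All 11 oocyte and early embryo markers had counts in every group. Summed markers of cumulus cells, sperm, blood and oviduct reached at most 38.5, 25.6, 50.6 and 135 CPM. The sperm genes Prm1, Tnp2, Akap4 and Smcp were at 0 throughout. Of the other sperm genes, Prm2 had counts in every group, and Tnp1 and Odf1 in some groups. The part of these cell types in the histone values was not tested. CPM is the usual library-size scaled count, here with library sizes adjusted by the trimmed mean of M-values (TMM). For the marker sums above and the sister blastomeres below, CPM was taken without that adjustment. It is a share of an embryo's counts, so more histone message and less of the rest cannot be told apart, and in an intact embryo a message in 1 blastomere cannot be told apart from one in all. Nothing in the labels says that embryos of a group came from separate matings, so p-values measure the spread between these embryos.

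The summed level of the histone genes had a higher mean at the 4-cell than at the 2-cell stage in both kinds of embryo, with H4c4 and H1f5 together holding most of it in the batch 1 4-cell embryos but not in those of batch 2. The summed level of all 57 genes averaged 1211 ± 531 CPM in separated 4-cell (SD, n = 5) and 270 ± 68.6 CPM in separated 2-cell embryos (n = 5). It averaged 1312 ± 717 CPM in intact 4-cell (n = 4) and 265 ± 155 CPM in intact 2-cell embryos (n = 5). The groups did not overlap among separated embryos, at 737 to 2125 CPM against 181 to 354 CPM. They overlapped among intact embryos, because intact 4-cell embryo 4 held 400.0 CPM and intact 2-cell embryo 2 held 517 CPM. Sums over chosen genes get no test.

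The classes differed in how far they stood apart by stage. Summed H4 averaged 615 ± 453 CPM in separated 4-cell against 124 ± 53.0 CPM in separated 2-cell embryos, and 852 ± 491 CPM in intact 4-cell against 129 ± 56.0 CPM in intact 2-cell embryos. Summed H1 averaged 299.98 ± 172 CPM in separated 4-cell against 56.1 ± 18.2 CPM in separated 2-cell embryos, and 228 ± 118 CPM in intact 4-cell against 31.9 ± 27.5 CPM in intact 2-cell embryos. Summed H2A averaged 142 ± 89.0 CPM in separated 4-cell against 22.8 ± 10.3 CPM in separated 2-cell embryos, and 133 ± 86.9 CPM in intact 4-cell against 34.6 ± 33.5 CPM in intact 2-cell embryos. H4, H1 and H2A thus carried most of the stage difference, but only H4 did not overlap between stages in either kind of embryo. The lowest 4-cell and highest 2-cell values of H1 were 57.9 and 73.4 CPM in separated, and 65.3 and 77.5 CPM in intact embryos. Those of H2A were 35.7 and 36.9 CPM in separated, and 23.2 and 78.4 CPM in intact embryos. Summed H2B averaged 79.5 ± 25.8 CPM in separated 4-cell against 45.2 ± 20.98 CPM in separated 2-cell embryos, and 68.0 ± 27.2 CPM in intact 4-cell against 50.8 ± 45.5 CPM in intact 2-cell embryos. Summed H3 averaged 74.4 ± 75.6 CPM in separated 4-cell against 21.5 ± 5.3 CPM in separated 2-cell embryos, and 31.3 ± 17.0 CPM in intact 4-cell against 19.2 ± 7.7 CPM in intact 2-cell embryos. For H2B and H3 in intact embryos, the stage means differed by less than the SD of the larger-spread group. The separated 4-cell H3 value rested on batch 2, with 157 CPM in batch 2 (n = 2) and 19.5 CPM in batch 1 (n = 3). Intact 2-cell embryo 2 held 129.7 CPM of H2B and 77.5 CPM of H1, and without it the intact 2-cell means were 31.0 CPM for H2B and 20.5 CPM for H1.

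**Figure D1:**
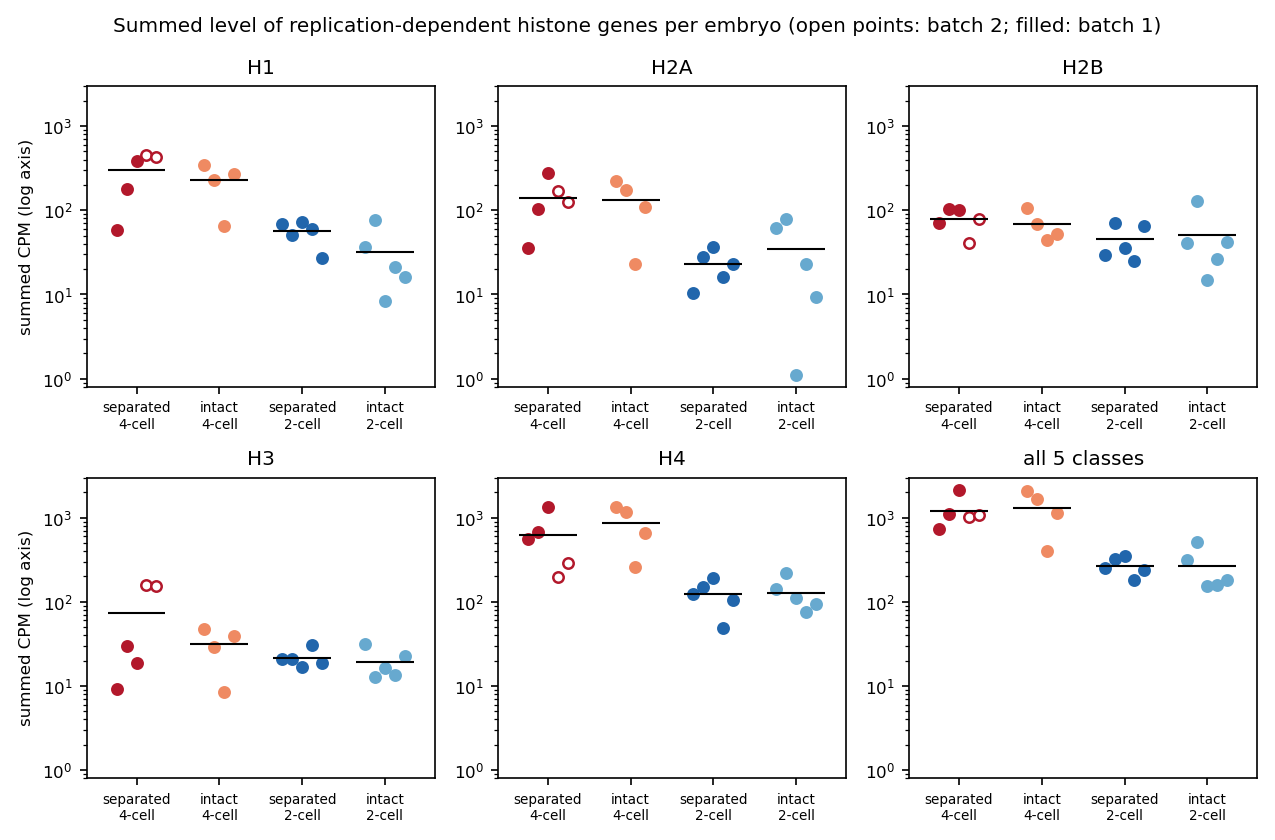
Summed TMM-scaled CPM of the histone genes of each class (log axis) in every embryo, by group; black lines are group means and open points are batch 2 embryos. H4, H1 and H2A have higher means in the 4-cell groups. Within each kind of embryo only H4 does not overlap between stages. H3 is high in the 2 batch 2 embryos (153 and 160.2 CPM), on which its higher separated 4-cell mean rests.

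Gene by gene, edgeR's quasi-likelihood test was run on 14119 genes, of which 40 were histone genes (5 H1, 10 H2A, 10 H2B, 8 H3 and 7 H4), and p-values were adjusted by Benjamini-Hochberg over all of them with a threshold of 0.05. The 17 histone genes left out had too few counts; H3c13 and H3c15 had none in any embryo and H3c14 had counts in 1. A gene passed the filter on low counts through the group where it is high, so counts over the 40 describe those genes only. In separated embryos, 7 histone genes were higher and 0 lower at the 4-cell stage, where 6.4% of all genes tested were higher and 4.7% lower. In intact embryos 6 were higher and 0 lower, where 5.41% of all genes were higher and 4.99% lower. By edgeR, as shares of 40, these counts lie above that background in both comparisons, and no set test was made. DESeq2 called 5 higher and 0 lower in separated embryos, where it called 3209 of all genes in either direction. In intact embryos it called 9 higher and 2 lower, where it called 3046. By DESeq2 the histone share thus lies below that of all genes in separated and somewhat above it in intact embryos. The 4-cell and 2-cell values of 7 genes in separated and 6 genes in intact embryos did not overlap in the higher direction, against 7.17% and 9.87% of all genes, and 1 (H4c3) and 0 did not overlap in the lower direction, against 6.93% and 7.1%.

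The genes called in both were H1f5, H2ac4, H2ac8, H3c6 and H4c4. H2ac7 and H3c2 were called in separated embryos only and H3c11 in intact embryos only, but no histone gene passed the test of the difference between the stage effects, where 0.0% of all genes did. At an unadjusted p under 0.05 that test gave 4 higher and 6 lower, against 8.7% of all genes. DESeq2 gave 0 higher and 2 lower, where it called 517 of all genes. The median log2 difference of the 40 was 1.64 in separated and 1.35 in intact embryos, against −0.15 and 0.00 over all genes. Leaving out single embryos moved these medians. For intact embryos it was 0.46 without intact 4-cell embryo 1, 2.67 and 2.04 without intact 2-cell embryos 1 and 3 in turn, and 0.88 and 0.87 without separated 4-cell embryos 6 and 7. For separated embryos it was 1.04 without separated 4-cell embryo 3. By class, the separated and intact medians were 2.27 and 9.45 for H1, 3.81 and 2.35 for H2A, 0.74 and 0.17 for H2B, 2.75 and 5.48 for H3 and −0.05 and −0.76 for H4. With genes at 0 in the 2-cell group set to their bound, the intact medians of H1 and H3 were 5.55 and 4.37. H4 had the highest summed level and a median below 0, with H4c4 as its 1 called gene.

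**Figure D2:**
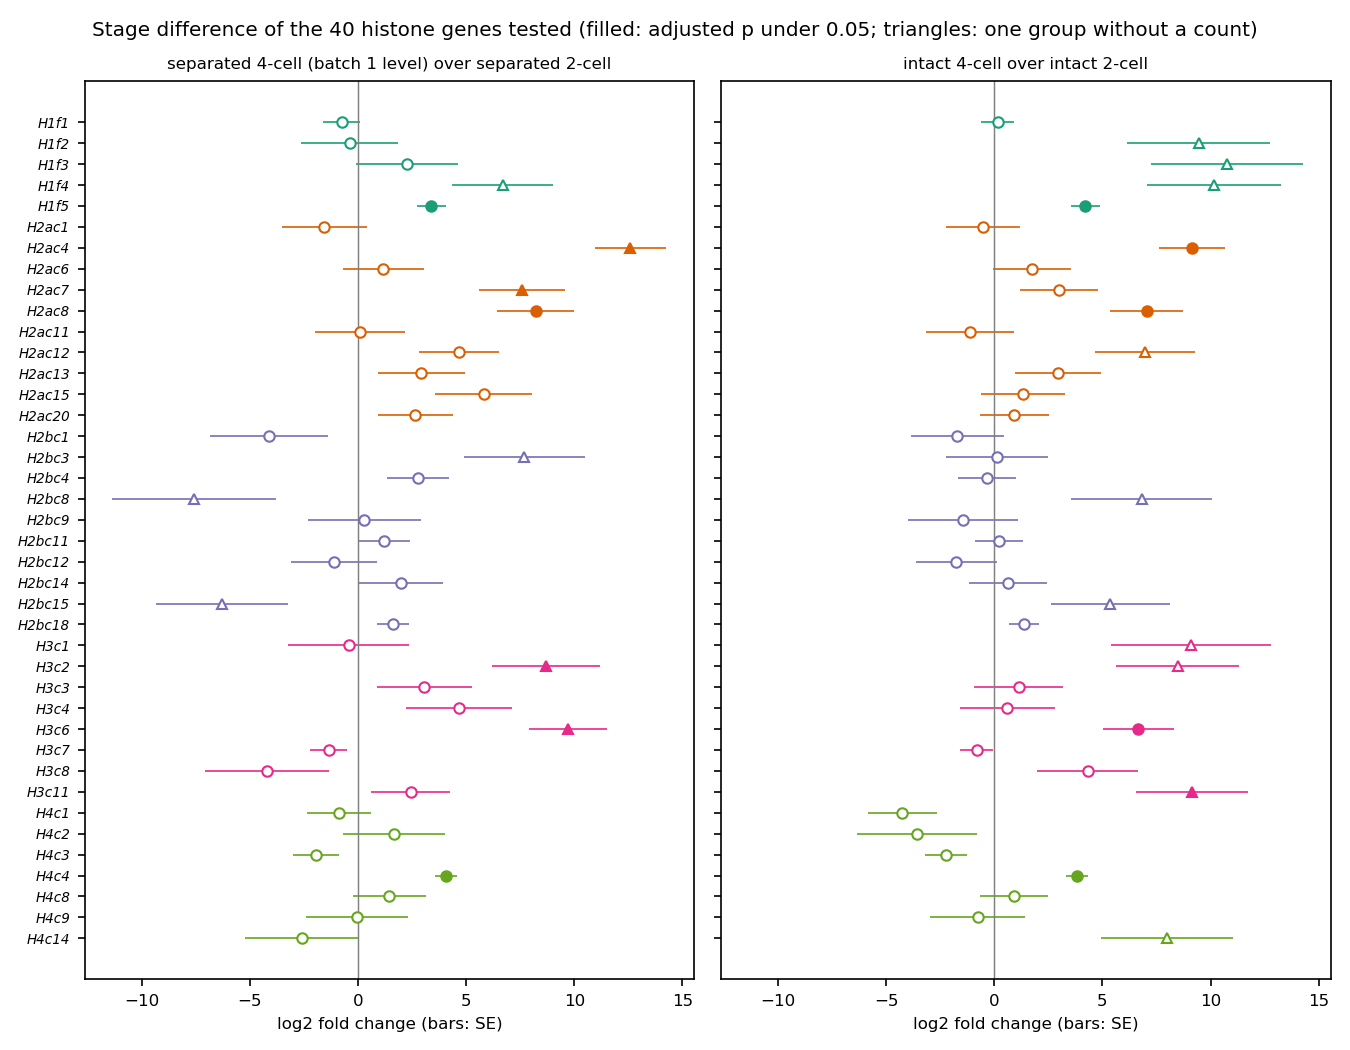
Fitted log2 fold change of each of the 40 tested histone genes, 4-cell over 2-cell, in separated (left, at the level of batch 1) and intact embryos (right); bars are SE, colours are the 5 classes, filled marks passed the test and triangles are genes with no count in one group, whose fitted value is no measured fold. All 13 filled marks lie above 0, and none is an H2B gene.

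H4c4 was the histone gene with the highest level, with a mean over all embryos of 311 CPM per kilobase of model. It encodes the same H4 protein type as the other H4c genes and lies at chr13:23581598-23582735 on the plus strand, in 1 exon. Separated 4-cell embryos 2, 3, 4, 6 and 7 had 530.4, 642, 1296, 187 and 270.0 CPM, against 56.7, 72.6, 68.5, 21.9 and 26.01 CPM in separated 2-cell embryos 1 to 5. Intact 4-cell embryos 1, 3, 4 and 5 had 1260.2, 1145, 258 and 612 CPM, against 83.4, 56.1, 45.2, 25.3 and 77.1 CPM in intact 2-cell embryos 1 to 5. Every 4-cell embryo lay above every 2-cell embryo, and the lowest 4-cell values were those of the batch 2 embryos and intact embryo 4. The log2 fold change was 4.07 (SE 0.52, adjusted p = 0.000134) in separated and 3.83 (SE 0.50, adjusted p = 9.03e-05) in intact embryos. It passed in all 29 alternatives run for each comparison.

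H4c3, a second H4 gene, held a large share of H4 counts at the 2-cell stage. It had 14.2, 12.5, 12.1, 2.41 and 3.79 CPM in separated 4-cell embryos 2, 3, 4, 6 and 7, against 30.8, 63.7, 84.7, 15.98 and 53.7 CPM in separated 2-cell embryos 1 to 5. It had 10.1, 4.09, 0 and 20.99 CPM in intact 4-cell embryos 1, 3, 4 and 5, against 42.8, 91.9, 23.3, 36.6 and 12.8 CPM in intact 2-cell embryos 1 to 5. All separated 4-cell values lay below all separated 2-cell values, and the intact groups overlapped through intact 4-cell embryo 5. The log2 fold change was −1.94 (SE 1.07, adjusted p = 0.246) in separated and −2.23 (SE 0.98, adjusted p = 0.143) in intact embryos, so H4c3 did not pass; by DESeq2 it passed in intact embryos (−2.43, adjusted p = 0.0202). The makeup of H4 counts differed by stage. H4c4 held 94.5 ± 1.1% of H4 in separated 4-cell and 96.6 ± 2.4% in intact 4-cell embryos, against 39.9 ± 9.6% in separated 2-cell and 47.9 ± 22.3% in intact 2-cell embryos (SD). H4c3 held 1.6 ± 0.6% and 1.1 ± 1.5% in separated and intact 4-cell, against 39.1 ± 10.4% and 31.0 ± 14.5% in separated and intact 2-cell embryos. In both batches of separated 4-cell embryos the H4c4 share was at least 93.8%, although its level differed between them.

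**Figure D3:**
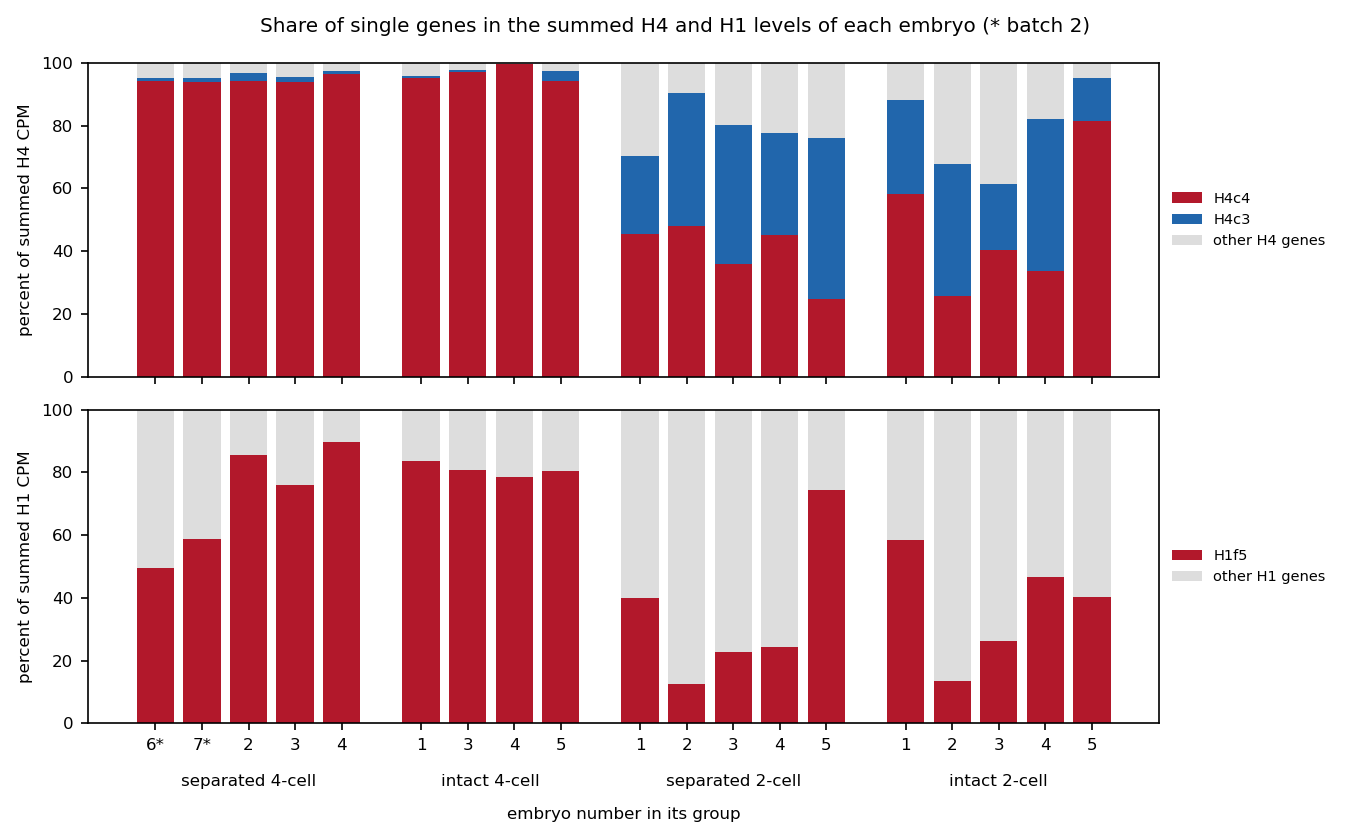
Percent of the summed H4 CPM held by H4c4 and H4c3 (top) and of the summed H1 CPM held by H1f5 (bottom) in each embryo; asterisks mark batch 2. H4c4 held 93.8 to 99.7% of H4 in the 9 4-cell embryos and 24.8 to 81.5% in the 10 2-cell embryos.

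Of the other H4 genes, none was called in either stage comparison. H4c9 averaged 6.8 ± 7.6 CPM in separated 4-cell and 8.9 ± 10.7 CPM in separated 2-cell embryos, and 8.1 ± 15.5 CPM in intact 4-cell and 13.7 ± 19.2 CPM in intact 2-cell embryos. H4c1 averaged 3.5 ± 4.1 CPM in separated 4-cell and 8.6 ± 4.3 CPM in separated 2-cell embryos, and 0.3 ± 0.5 CPM in intact 4-cell and 6.6 ± 6.9 CPM in intact 2-cell embryos. DESeq2, but not edgeR, called H4c1 lower in intact 4-cell embryos (−4.50, adjusted p = 0.0021).

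H1f5, a linker histone gene at chr13:21779883-21780625 on the minus strand, was the second highest at 133 CPM per kilobase of model. Separated 4-cell embryos 2, 3, 4, 6 and 7 had 49.4, 138, 345, 223 and 250.4 CPM, against 27.1, 6.34, 16.7, 14.7 and 20.2 CPM in separated 2-cell embryos 1 to 5. Intact 4-cell embryos 1, 3, 4 and 5 had 287, 187, 51.4 and 218 CPM, against 21.2, 10.5, 2.19, 9.88 and 6.47 CPM in intact 2-cell embryos 1 to 5. The stages did not overlap, and the lowest 4-cell values were those of separated embryo 2 and intact embryo 4. The log2 fold change was 3.38 (SE 0.68, adjusted p = 0.00397) in separated and 4.21 (SE 0.68, adjusted p = 0.000643) in intact embryos. It passed in all 29 alternatives of each comparison. H1f5 held 71.8 ± 17.2% of H1 counts in separated 4-cell and 80.9 ± 2.1% in intact 4-cell embryos. It held 34.7 ± 24.3% in separated 2-cell and 37.1 ± 17.5% in intact 2-cell embryos. Among separated 4-cell embryos the share averaged 83.6% in batch 1 and 54.2% in batch 2 (49.5 and 58.9%). Both batch 2 shares lay below that of separated 2-cell embryo 5 (74.4%).

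H1f1, the other H1 gene with counts in all 19 embryos, did not pass. It averaged 38.1 ± 28.5 CPM in separated 4-cell and 32.0 ± 19.5 CPM in separated 2-cell embryos. In intact embryos it averaged 24.2 ± 8.4 CPM at the 4-cell and 21.8 ± 25.4 CPM at the 2-cell stage. The separated 4-cell mean holds both batches, and batch 2 was fitted above batch 1 (log2 1.83, SE 1.04, adjusted p = 0.491). At the level of batch 1, H1f1 was fitted lower than in separated 2-cell embryos (log2 −0.76, SE 0.86, adjusted p = 0.631). H1f2, H1f3 and H1f4 had no count in any intact 2-cell embryo and 52, 114 and 74 counts over the 4 intact 4-cell embryos, at least 46.9-fold, 102.8-fold and 66.7-fold higher with a floor of 3 counts over the group. Their adjusted p-values were 0.0791, 0.0629 and 0.0589, so they did not pass; they passed by DESeq2 and with no filter on low counts. Each had no count in at least 1 intact 4-cell embryo. In separated embryos H1f2 had 169 counts over the batch 1 4-cell embryos against 1220 over the 2-cell embryos (log2 −0.39, adjusted p = 0.945). Its fitted direction thus differed from that in intact embryos, but all 169 counts came from separated 4-cell embryo 4. H1f3 had 294 against 372 counts (log2 2.27, adjusted p = 0.595), and H1f4 had 22 against 0 counts (adjusted p = 0.0893). Batch 2, outside these counts, held 18412, 7625 and 6943 counts of H1f2, H1f3 and H1f4. It was fitted above batch 1 for each (log2 4.12, 2.16 and 5.80), without passing (adjusted p = 0.634, 0.874 and 0.475). The testis type H1f6 had counts in 2 of the 19 embryos, with 4.64 CPM in intact 4-cell embryo 5 and 0.128 CPM in separated 4-cell embryo 6.

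Among the H2A genes, H2ac4 and H2ac8 were near 0 at the 2-cell stage. H2ac8 had 11.7, 41.8, 158, 89.3 and 29.7 CPM in separated 4-cell embryos 2, 3, 4, 6 and 7, against 0, 1.03, 0, 0.02 and 0.07 CPM in separated 2-cell embryos 1 to 5. It had 126.6, 115, 6.36 and 54.2 CPM in intact 4-cell embryos 1, 3, 4 and 5, against 0, 0.16, 0.10, 0 and 2.59 CPM in intact 2-cell embryos 1 to 5. The stages did not overlap, and the log2 fold change was 8.21 (SE 1.79, adjusted p = 0.007) in separated and 7.04 (SE 1.70, adjusted p = 0.012) in intact embryos. H2ac4 had 15.0, 28.6, 43.4, 42.0 and 28.8 CPM in separated 4-cell embryos 2, 3, 4, 6 and 7, and no count in any separated 2-cell embryo. It had 39.4, 14.9, 3.91 and 13.9 CPM in intact 4-cell embryos 1, 3, 4 and 5, and a single count, in embryo 2, over the intact 2-cell embryos. The batch 1 separated 4-cell embryos had 1217 counts of H2ac4, at least 1619-fold more than the floor of 3 counts over the separated 2-cell group (adjusted p = 0.000394). The ratio in intact embryos was 717 (95% counting interval 128 to 28422, adjusted p = 0.00159). Both genes passed in all 29 alternatives of each comparison.

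H2ac7 had 2.03, 0.58, 0.08, 1.08 and 0.63 CPM in separated 4-cell embryos 2, 3, 4, 6 and 7, and no count in separated 2-cell embryos. It rose by at least 50.6-fold in batch 1 separated 4-cell embryos (adjusted p = 0.0251), but did not pass with no filter on low counts (adjusted p = 0.0809) or by DESeq2 (adjusted p = 0.171). H2ac20 averaged 27.2 ± 17.4 CPM in separated 4-cell and 3.8 ± 5.5 CPM in separated 2-cell embryos, and 14.5 ± 8.5 CPM in intact 4-cell and 7.6 ± 7.7 CPM in intact 2-cell embryos, and did not pass (adjusted p = 0.343 and 0.765). The testis types H2ac1 and H2bc1 had their higher means at the 2-cell stage without passing. H2ac1 averaged 6.3 ± 7.3 CPM in separated 4-cell and 16.9 ± 13.4 CPM in separated 2-cell embryos, and 15.7 ± 10.8 CPM in intact 4-cell and 22.4 ± 28.2 CPM in intact 2-cell embryos. H2bc1, its H2B counterpart, averaged 0.3 ± 0.5 CPM in separated 4-cell and 7.0 ± 6.7 CPM in separated 2-cell embryos, and 1.8 ± 2.2 CPM in intact 4-cell and 6.0 ± 10.3 CPM in intact 2-cell embryos.

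No H2B gene passed in either stage comparison. H2bc18 was the highest, at 38.97 ± 28.01 CPM in separated 4-cell and 17.1 ± 6.4 CPM in separated 2-cell embryos, and 39.4 ± 21.9 CPM in intact 4-cell and 15.3 ± 11.8 CPM in intact 2-cell embryos (adjusted p = 0.168 and 0.214). Its whole model is shared with the overlapping gene Gm20628, so its counts cannot be assigned to it alone. H2bc11 averaged 16.9 ± 7.5 CPM in separated 4-cell and 8.4 ± 3.6 CPM in separated 2-cell embryos, and 8.4 ± 6.7 CPM in intact 4-cell and 7.3 ± 6.4 CPM in intact 2-cell embryos. H2bc14 averaged 5.7 ± 4.9 CPM in separated 4-cell and 2.1 ± 2.1 CPM in separated 2-cell embryos, and 6.9 ± 4.7 CPM in intact 4-cell and 4.4 ± 6.7 CPM in intact 2-cell embryos.

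Among the H3 genes, H3c6 had 2.97, 2.11, 6.79, 35.5 and 29.8 CPM in separated 4-cell embryos 2, 3, 4, 6 and 7, and no count in separated 2-cell embryos. It had 11.4, 5.21, 3.18 and 15.9 CPM in intact 4-cell embryos 1, 3, 4 and 5, against 0.28, 0.16, 0, 0 and 0 CPM in intact 2-cell embryos 1 to 5. The stages did not overlap, and the highest values were in batch 2. The fold was at least 215.5 in batch 1 separated embryos (adjusted p = 0.00352) and 123 in intact embryos (95% counting interval 41.1 to 602, adjusted p = 0.0184). In intact embryos it did not pass without intact 4-cell embryo 5 (adjusted p = 0.0517), without batch 2 (adjusted p = 0.0528) or with no filter (adjusted p = 0.0554). In separated embryos it passed in all 29 alternatives.

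H3c11 and H3c2 rested on fewer counts. H3c11 had 1.16, 3.13, 5.86, 42.0 and 43.7 CPM in separated 4-cell embryos 2, 3, 4, 6 and 7, against 0.46, 2.65, 0, 0 and 0 CPM in separated 2-cell embryos 1 to 5. It had 1.55, 1.86, 1.22 and 5.86 CPM in intact 4-cell embryos 1, 3, 4 and 5, and no count in intact 2-cell embryos. The intact fold was at least 36.1 (adjusted p = 0.0358), and it did not pass in 13 of 27 alternatives, among them each that dropped a single intact embryo (adjusted p = 0.0514 to 0.0844). It also failed on dropping embryo 6 or embryo 7 of batch 2 (adjusted p = 0.0542 and 0.0548). H3c2 had 0, 5.89, 0, 3.47 and 3.14 CPM in separated 4-cell embryos 2, 3, 4, 6 and 7 and no count in separated 2-cell embryos. All 92 of its batch 1 counts came from embryo 3; the adjusted p was 0.0448, and 1 without that embryo. It did not pass in 16 of 26 alternatives, which include dropping a single separated 2-cell, intact 4-cell or batch 2 embryo (adjusted p = 0.0564 to 0.0712). H3c7 showed no stage call, with 18.4 ± 15.8 CPM in separated 4-cell and 19.1 ± 7.1 CPM in separated 2-cell embryos. In intact embryos it had 9.9 ± 4.5 CPM at the 4-cell and 17.3 ± 8.0 CPM at the 2-cell stage. Its separated 4-cell mean holds both batches, and batch 2 was fitted above batch 1 (log2 2.24, SE 1.01, adjusted p = 0.347). At the level of batch 1, H3c7 was fitted lower than in separated 2-cell embryos (log2 −1.37, SE 0.86, adjusted p = 0.316).

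**Figure D4:**
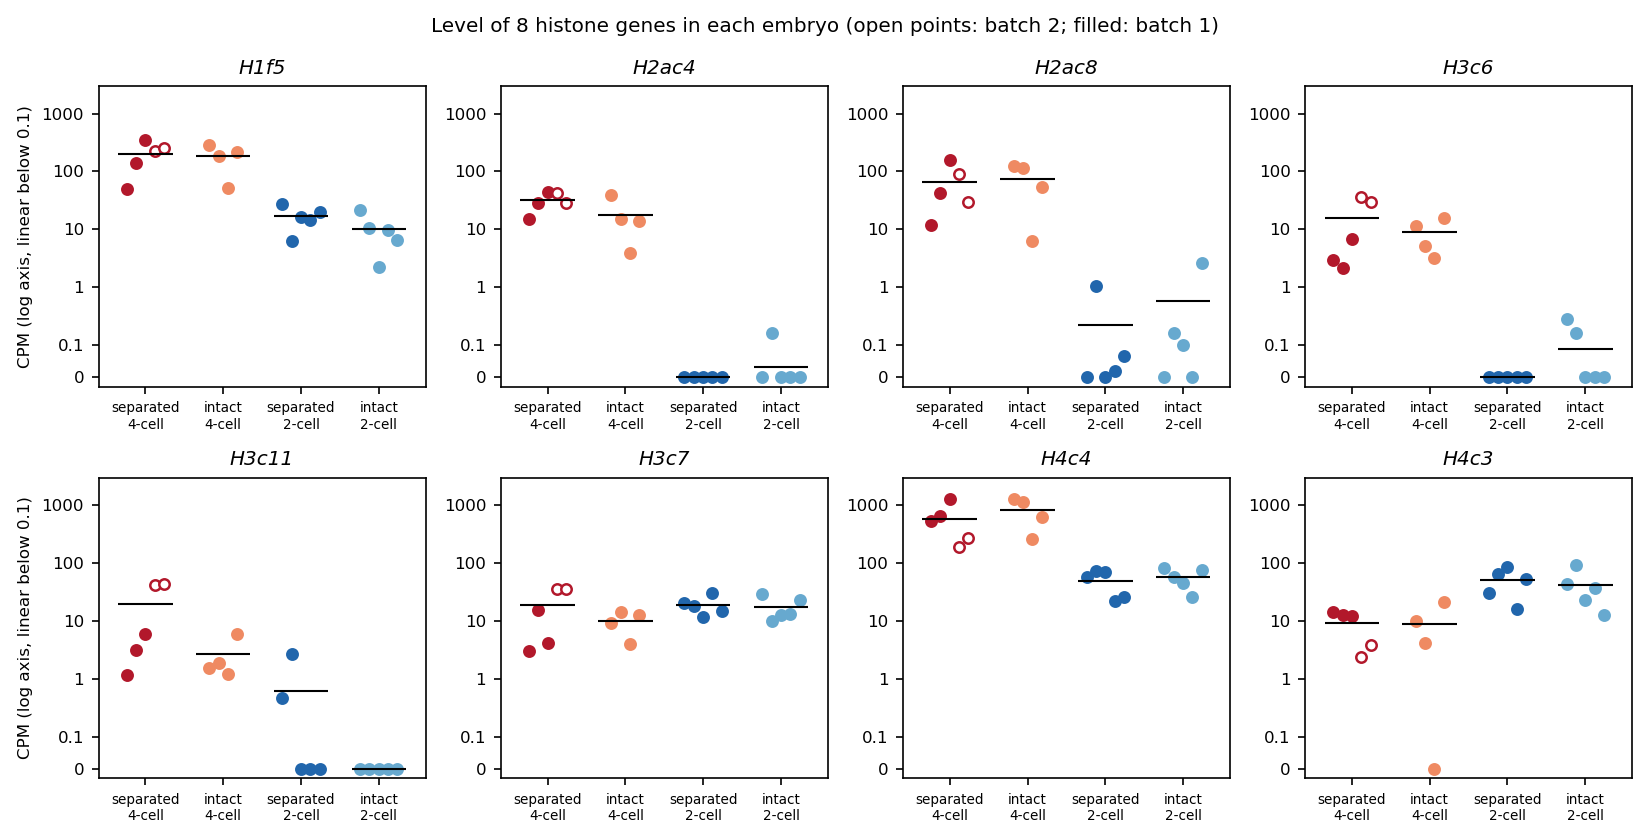
TMM-scaled CPM of 8 histone genes in every embryo by group (log axis, linear below 0.1); black lines are group means and open points batch 2. H1f5, H2ac4, H2ac8, H3c6 and H4c4 do not overlap between stages, while H3c7 overlaps and H4c3 is lower in the separated 4-cell embryos.

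Separating the blastomeres made no called difference. Against intact embryos, 0 histone genes were called in separated 4-cell embryos, where 0.0% of all genes were, and 0 in separated 2-cell embryos, where 0.0142% were. At an unadjusted p under 0.05 edgeR gave 1 higher and 0 lower at the 4-cell stage and 7 higher and 5 lower at the 2-cell stage, where 5.98% and 10.5% of all genes passed in either direction. DESeq2 called 0 at the 4-cell and 2 at the 2-cell stage, H1f2 and H1f3, which had counts in 3 and 1 separated 2-cell embryos and in no intact 2-cell embryo. H4c1 did not overlap at the 4-cell stage, at 0.98 to 10.7 CPM in separated against 0 to 0.98 CPM in intact embryos (adjusted p = 0.801), where 1.76% of all genes lay apart in the higher direction; 0 histone genes lay apart in the lower direction, against 0.616%. At the 2-cell stage 0 lay apart either way, against 0.432% higher and 0.12% lower. The median log2 difference of the 40 genes was −0.03 at the 4-cell and −0.19 at the 2-cell stage, against 0.05 and 0.16 over all genes. With 2 or 4 times as many libraries and more counts per separated embryo, depth and separation cannot be told apart.

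Within the separated 4-cell embryos, batch 2 and batch 1 differed in summed H1, H3 and H4 without any edgeR call for a histone gene. None of the 40 genes passed, against 2.03% of all genes in either direction, with 4 higher and 1 lower at an unadjusted p under 0.05. By non-overlap, 13 were higher and 4 lower in batch 2, against 27.9% and 16.4% of all genes, and 7 of the 8 tested H3 genes were among the 13. As shares of 40, the 13 lie slightly above and the 4 below those of all genes. Summed H1 was 438 CPM in batch 2 and 208 CPM in batch 1, and summed H4 was 243 CPM in batch 2 and 863 CPM in batch 1. H4c4 had a log2 difference of −1.85 (SE 0.68, adjusted p = 0.226) and H3c7 of 2.24 (SE 1.01, adjusted p = 0.347), batch 2 over batch 1. Fitted on the separated 4-cell embryos alone, H3c6, H3c11 and H4c4 passed (adjusted p = 0.0294, 0.0176 and 0.0157), and DESeq2 called H3c7 (adjusted p = 0.0148). Over all genes DESeq2 called 1275 for batch. The batch 2 embryos also had the most counts, 103179667 and 86817545, and the part of depth was not tested.

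Sister blastomeres of an embryo were compared by CPM of each library's own total, without TMM scaling and with no test. In 2-cell embryos the summed level of all 57 genes differed by 1.1 to 1.2 times between sisters, although single genes could be missing from one. H1f5 had a count in only 1 sister of 2-cell embryos 2, 3 and 4, at 7.2, 33.3 and 17.0 CPM. In 4-cell embryos the highest over the lowest sister was 1.2 to 2.2 for the sum. H4c4 was 351 to 570 CPM in the sisters of embryo 2, 337 to 1131 in embryo 3, 1211 to 1359 in embryo 4, 195 to 292 in embryo 6 and 73.8 to 622 in embryo 7. Summed H1 ranged from 0.4 to 135 CPM within embryo 2, and summed H4 from 90.1 to 636 CPM within embryo 7.

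Missing sisters were about as frequent for histone genes as for other genes. Of pairs of gene and embryo with a mean of at least 10 CPM, a sister was at 0 in 0 of 36 pairs (0%) in 4-cell batch 2, 11 of 33 (33.3%) in 4-cell batch 1 and 5 of 39 (12.8%) at the 2-cell stage. Over all genes the shares were 0.934%, 30.6% and 15.5%. With every blastomere thinned to the smallest library, of 2019180 counts, the histone shares were 2.78%, 39.4% and 17.5%, and those of all genes 1.81%, 34.4% and 19.9%.

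**Figure D5:**
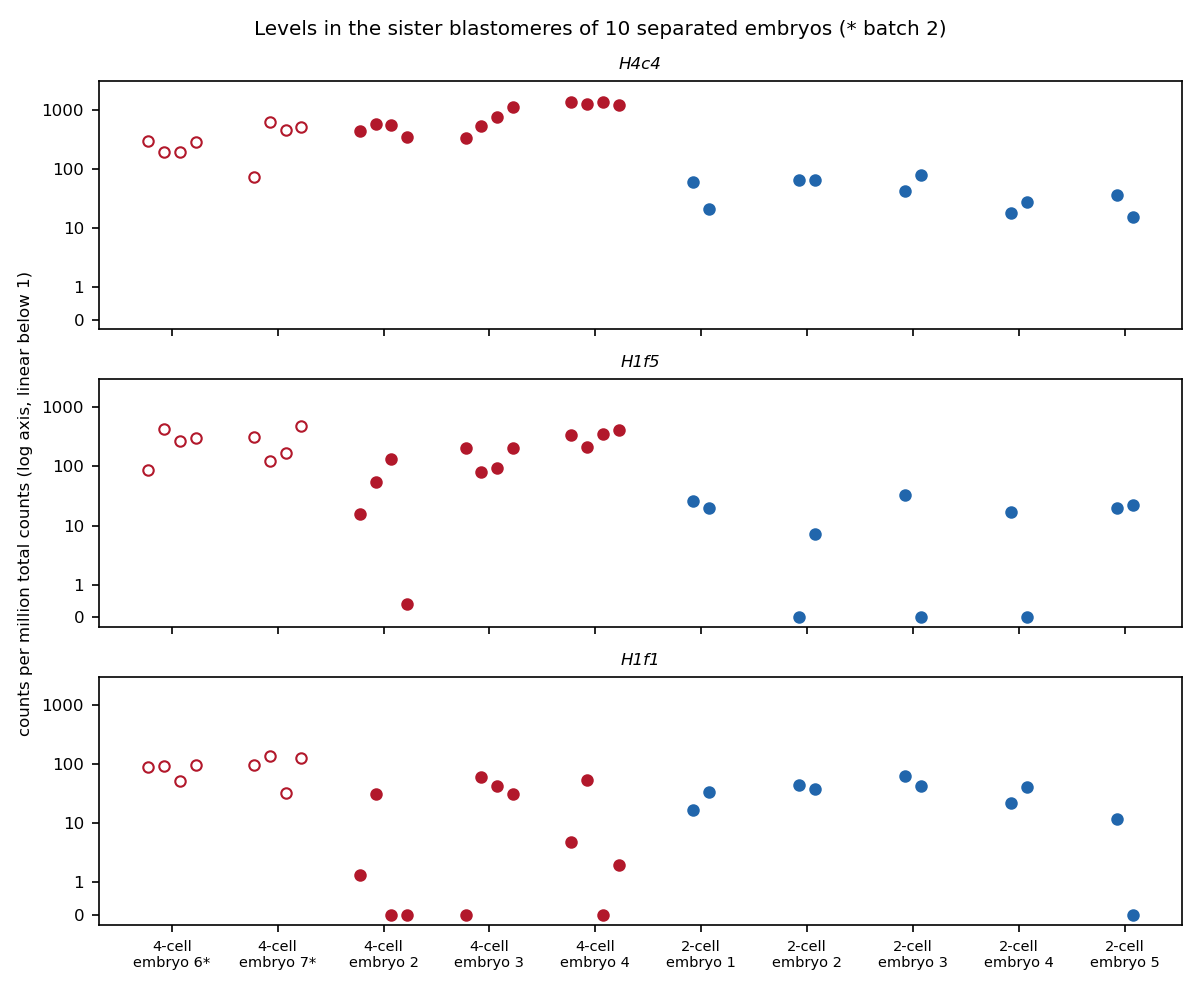
CPM of the library total (no TMM scaling) of H4c4, H1f5 and H1f1 in each blastomere library of the separated embryos (log axis, linear below 1); open points are batch 2. H4c4 was detected in all 30 blastomeres, and H1f5 was at 0 in 1 sister of 3 of the 2-cell embryos.

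The machinery around histone messages was read from lists chosen for this subject. Beside their counts stand the shares of all genes called, 6.4% higher and 4.7% lower in separated and 5.41% and 4.99% in intact embryos, and no list was tested against these. Of 21 histone mRNA processing genes, Slbp, whose protein binds the stem-loop, was lower in 4-cell embryos in both comparisons. It averaged 194 ± 53.5 CPM in separated 4-cell against 374 ± 75.5 CPM in separated 2-cell embryos (log2 −1.11, SE 0.32, adjusted p = 0.0302), and 151 ± 46.6 CPM in intact 4-cell against 406 ± 101 CPM in intact 2-cell embryos (−1.43, SE 0.29, adjusted p = 0.00378). Zfp473, a zinc finger gene of the histone pre-mRNA complex, was higher in separated 4-cell embryos (adjusted p = 0.0332), at 3.12 ± 3.67 CPM with no count in separated 2-cell embryos. Of 15 transcription genes, 0 passed in separated embryos, and in intact embryos Ccne1 (1.02, SE 0.29) was higher and E2f1 (−2.92, SE 0.90) lower. Npat, the cyclin E-CDK2 substrate that activates histone genes, averaged 132 ± 41.4 CPM in separated 4-cell and 129 ± 66.4 CPM in separated 2-cell embryos, and 187 ± 74.5 CPM in intact 4-cell and 107 ± 47.1 CPM in intact 2-cell embryos, and passed in neither (adjusted p = 0.79 and 0.256).

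Of 25 histone chaperone and import genes, 2 were higher and 1 lower in separated embryos, near the shares of all genes (6.4% and 4.7%). In intact embryos 4 were higher and 1 lower, where 5.41% and 4.99% of all genes were. The importin Ipo5 rose in both (log2 1.55, SE 0.38, and 2.23, SE 0.37), as did the nuclear chaperone Npm1 (1.22, SE 0.29, and 1.64, SE 0.27). Npm2, the oocyte nucleoplasmin, was lower in separated embryos (−1.28, SE 0.36). In intact embryos Nasp, which binds H1 and H3-H4, and Ipo7 were higher (0.89, SE 0.26, and 2.62, SE 0.55) and the H3-H4 chaperone gene Asf1b was lower (−1.64, SE 0.47). Of 26 S phase genes, 1 was called higher in separated and 2 in intact embryos, with 0 lower, which is near the shares of all genes. These were the origin licensing gene Cdc6 in both (2.39, SE 0.46, and 2.42, SE 0.44) and Cdt1 in intact embryos (2.07, SE 0.47). Of 10 replication-independent histone variants tested, H2az1 was lower in both (−0.76, SE 0.23, and −1.32, SE 0.22) and H2az2 in intact embryos (−1.44, SE 0.34), and none was called higher. The list medians in separated and intact embryos were 0.19 and 0.42 for processing, −0.39 and 0.40 for transcription, 0.10 and 0.65 for chaperones, 0.54 and 0.49 for S phase and 0.13 and 0.15 for variants.

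Of 6620 other genes with a mean of at least 10 CPM, the 5 whose levels over the 19 embryos most resembled the summed histone level were Guk1 (Spearman 0.909), H1f0 (0.881), G3bp2 (0.877), Crygs (0.870) and Npm1 (0.868). The embryos fall into 2 stages and no correlation was taken within a stage. A shared stage difference and likeness within a stage therefore cannot be told apart, and these correlations are a description. H1f0, a replication-independent linker histone, averaged 34.8 CPM in separated 4-cell, 23.8 CPM in intact 4-cell, 4.7 CPM in separated 2-cell and 6.6 CPM in intact 2-cell embryos, and passed in neither stage comparison (adjusted p = 0.153 and 0.405).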

How the data were processed

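Single embryos and separated blastomeres were sequenced after oligo-dT primed Smart-seq2 amplification, per the labels' protocols. The deposited values are expected counts per gene, which the authors estimated with RSEM 1.2.28 after Trim Galore 0.6.10 and STAR 2.7.3a on GRCm38, per the submitters' processing notes. Of the nonzero values 12.65% were not whole; all were rounded, and blastomeres were summed to 19 embryos from 39 libraries. No pair of libraries was identical.

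edgeR 4.0.16 (R 4.3.3) was fitted to all embryos with TMM scaling, its filterByExpr filter on low counts, 4 groups and a batch 2 term. Stage effects of separated 4-cell embryos are therefore at the level of batch 1. The quasi-likelihood F-test gave p-values, adjusted by Benjamini-Hochberg over 14119 genes with a threshold of 0.05. Each SE of an edgeR log2 fold change is approximate. It was back-calculated as the absolute log2 fold change divided by the square root of the F statistic. The contrasts were stage within each kind of embryo, separated against intact within each stage, their interaction, and batch. Bounds against a group without a count use a floor of 3 counts over the group; intervals of ratios are exact at the 95% level, and both cover counting error only. Alternatives were DESeq2 1.42.0 size factors and Wald test, no or a stricter filter, the compared groups alone, no batch term, batch 2 left out, counts not rounded, thinning, a replicate block and leaving out each embryo. Calculations used Python 3.11.15. The methods were tested on simulated data.

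The members and gene lists were chosen with earlier results of these data known. By rule, the named genes are each member called in a stage or separation contrast, the 3 members of each class with the highest mean CPM, the testis types H1f6, H2ac1 and H2bc1, the called genes of each list with Slbp and Npat, and the 5 genes most like the summed level. H1f3, H1f4 and H4c1 were named after their values were seen.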

Additional observations from a re-analysis of the deposited data

Results flagged for a closer look

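In groups of 4 or 5 embryos, the highest or lowest value was compared with the others by Dixon's 95% limit. Of 95 sets tested, 14 held a value beyond it. Chance flags about 1 in 20 groups where values are normally spread, and many sets share an embryo. A group with counts in a single embryo is always flagged, which was so for H2ac4, H2ac7 and both H1f6 groups below. The number of flags therefore does not measure an excess of unusual values. Intact 2-cell embryo 2 stood above its group for summed H2B (129.7 CPM), for H1f1 (66.9 CPM), for H2bc1 (24.0 CPM) and for H2ac4, where its 1 count (0.164 CPM) was the group's only one. Summed histone level was highest in separated 4-cell embryo 4 (2125 CPM), and summed H3 in separated 2-cell embryo 4 (30.5 CPM). H2ac8 was high for its stage in separated 2-cell embryo 2 (1.03 CPM) and intact 2-cell embryo 5 (2.59 CPM), both still below every 4-cell embryo. H3c11 stood apart in intact 4-cell embryo 5 (5.86 CPM) and separated 2-cell embryo 2 (2.65 CPM). H2ac7 had counts in intact 2-cell embryo 3 alone of its group (0.399 CPM). H4c9 was high in intact 4-cell embryo 1 (31.3 CPM). H1f6 had counts in 1 embryo of each 4-cell group, separated embryo 6 (0.128 CPM) and intact embryo 5 (4.64 CPM).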

How the results depend on the processing

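The counts of called histone genes stayed within 1.5 times in all alternatives except 6. DESeq2's Wald test gave 11 in place of 6 for stage in intact embryos, 2 in place of 0 for separated against intact 2-cell embryos, 2 in place of 0 for the interaction and 1 in place of 0 for batch. With no filter on low counts, 1 gene was called between separated and intact 2-cell embryos, and with the separated 4-cell embryos alone 3 were called for batch. The cause of these was not tested. Leaving out 1 embryo gave 5 to 7 calls for stage in separated and 4 to 7 in intact embryos, and 0 in the other contrasts. With the embryo number as a replicate block, 5 genes in separated and 4 in intact embryos were called, and 0 in the separation contrasts and the interaction, while calls over all genes were 711 in place of 1568 and 737 in place of 1469. Same-numbered embryos did not deviate together over the genes tested (correlations −0.069 to 0.032). The labels do not say whether the numbers pair embryos. Low correlations between few single embryos of wide spread cannot decide it. H3c6 (adjusted p = 0.091) and H3c11 (adjusted p = 0.0863) in intact embryos and H2ac7 (adjusted p = 0.114) and H3c2 (adjusted p = 0.253) in separated embryos did not pass under the block. No called gene changed sign. The histone medians of uncalled contrasts crossed 0 when 1 embryo was left out, at −0.30 to 0.46 for separation at the 4-cell stage, −0.32 to 0.15 at the 2-cell stage and −0.13 to 0.76 for the interaction. With size factors of DESeq2, the median stage effect over all genes shifted by −0.13 (log2) in intact and −0.06 in separated embryos. Intact 4-cell embryos had the fewest counts, so genes at a few CPM rest on few counts there.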
